A study of Callithrix jacchus with 39 samples.

Results

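Primed embryonic stem cells (ESCs) of the common marmoset, Callithrix jacchus, were compared between cells titled DSY127 and cells titled No.40 by poly(A)+ RNA sequencing. The comparison used 6 of the 39 libraries of the study, 3 titled DSY127 and 3 titled No.40, and covered all genes that passed a filter on low counts. Both groups are labelled primed ESCs, with no treatment, transgene, passage number or animal given, and neither title carries Tg. A further 6 libraries, 3 titled DSY-c2_P_Tg and 3 titled N40_P_Tg, served as a second pair of primed groups with no library in common. To define which genes differ between naive and primed cells, 6 naive libraries titled DSY-c2_N_TgON and N40_N_TgOFF were used. The labels do not define Tg and do not state that DSY-c2 comes from DSY127 or N40 from No.40. Nor do they tell whether replicates are separate cultures, so p-values reflect library-to-library spread that may be purely technical.

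Primed ESCs correspond to the epiblast after implantation and are held by FGF and activin signalling, whereas naive cells resemble the epiblast before implantation. Both states share the transcription factors POU5F1, SOX2 and NANOG. Genes of the germline, such as those for meiosis and for piRNA-guided silencing of transposons, are kept off in most somatic cells by DNA methylation and Polycomb complexes, and individual pluripotent lines differ in how tightly they are held. Primed cultures also contain cells that start to differentiate, which in ESCs often take on endoderm or mesoderm genes.

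Total counts per library were 45.9 to 54.6 M in DSY127 and 38.8 to 56.7 M in No.40, where M stands for mega. The column headers place No.40 replicate 1 in suffixes L6 and L7 and the other 5 libraries in L1 and L2, so that the comparison within one suffix is the one without No.40 replicate 1. No.40 replicate 1 had a Pearson's r across genes of 0.973 to 0.976 with DSY127 libraries, against 0.968 and 0.974 with other No.40 libraries. Those other No.40 libraries correlated with each other at 0.969, and with DSY127 at 0.958 to 0.971. Libraries of DSY127 correlated with each other at 0.985 to 0.987. Levels below are CPM, counts scaled to the same library total, on library sizes scaled by the trimmed mean of M-values, and differences are log2 DSY127 minus No.40.

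At an adjusted p under 0.05 in edgeR's quasi-likelihood test with Benjamini-Hochberg adjustment, 802 of 17957 tested genes differed, 4.47% of those tested. Of these, 476 genes (2.65%) were higher and 326 (1.82%) lower in DSY127. The genes that were higher differed by more: 276 of the 476 changed at least 2-fold, with a median log2 difference of 1.16, whereas 90 of the 326 lower genes did, with a median of -0.66. A gene symbol was known for 350 of the higher and 195 of the lower genes. Leaving out No.40 replicate 1 raised the number of calls to 1165, 586 higher and 579 lower. Leaving out DSY127 replicate 1, 2 or 3 gave 403, 377 and 399 calls, and leaving out No.40 replicate 2 or 3 gave 368 and 470.

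The position of No.40 replicate 1 was measured over genes called in its absence. Over the 361 genes called higher in DSY127 without it whose higher line averaged 10 CPM or more, its level lay a median of 37% of the way from the mean of the other No.40 libraries to the mean of DSY127 (quartiles 15.2% and 68.4%). Over the 503 such genes called lower in DSY127 it lay 58.6% of the way (33.7% and 75.8%). Each of the other 5 libraries, held out in the same manner, had medians between -14.5% and 11.6%. By these medians No.40 replicate 1 stood apart from the other 5 libraries, although single genes of others also lay past the midpoint, such as 29 of 201 for No.40 replicate 3. Among the 476 genes higher in DSY127, it was the highest of the No.40 libraries for 58.6%, against 34% of all tested genes. Among the 326 lower genes it was the lowest for 64.4%, against 31.1% of all tested genes. Whether the library differs by culture, by handling or by sequencing was not tested.

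A minority of germline genes was higher in DSY127. Of 62 tested genes of a germline list, 11 were called higher (17.7%, against 2.65% of all tested genes), none was called lower, and 51 did not pass the test. The list's median log2 difference was 0.76, against 0.00 for all tested genes, and 51 of the 62 values lay above 0. The list held 87 genes, of which 66 had a gene ID with that symbol and 4 failed the filter on low counts. The count depended on single libraries. It was 7, 6 and 9 genes without DSY127 replicates 1, 2 and 3, and 16, 5 and 11 without No.40 replicates 1, 2 and 3. Without No.40 replicate 1 there was also 1 lower gene, DPEP3, a testis dipeptidase.

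The widest differences were in RNA-binding proteins. RBM46, which is required for germ cells to enter meiosis properly in mice, had 98.6, 95.9 and 101 CPM in DSY127, against 12.5, 1.77 and 2.47 CPM in No.40. All DSY127 libraries stood far above all No.40 libraries, of which replicate 1 was the highest. RBM44, an RNA-binding protein of the bridges between germ cells in mice, had 73.3, 78 and 70.7 CPM in DSY127, against 6.48, 1.11 and 3 CPM in No.40. The log2 differences were 4.13 ± 0.58 (SE, adjusted p = 0.00107) for RBM46 and 4.38 ± 0.47 (adjusted p = 7.72e-05) for RBM44. In the postimplantation epiblast of the embryo, averages were 12.4 ± 8.4 CPM for RBM46 and 17.5 ± 7.18 CPM for RBM44 (SD, n = 3). By these values DSY127 lay above and No.40 replicates 2 and 3 below the epiblast mean for both genes. Embryo libraries were scaled apart from the ESC libraries, so the comparison is a rough one.

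BRDT, a bromodomain protein that reads acetylated histones in male germ cells, had 15.3, 18.6 and 14.3 CPM in DSY127, against 1.16, 1.25 and 1.57 CPM in No.40. Here No.40 replicate 1 was the lowest of its group. The log2 difference was 3.59 ± 0.35 (adjusted p = 1.99e-05). Of the meiotic chromosome genes, SYCP1, the transverse filament of the synaptonemal complex, had 24.1, 36.9 and 21.8 CPM in DSY127, against 7.3, 3.46 and 3.88 CPM in No.40, a log2 difference of 2.5 ± 0.41 (adjusted p = 0.00224). The groups did not overlap. SYCE1 of its central element differed by 1.41 (adjusted p = 0.0155) and SMC1B, a cohesin subunit specific to meiosis, by 1.56 (adjusted p = 0.0211), both below 7 CPM in every library. These and MEIOC and TDRD6 below were named after their values were seen.

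PIWIL1, which binds piRNAs, had 65.4, 75.3 and 56.7 CPM in DSY127, against 23.1, 9.23 and 19.3 CPM in No.40, a log2 difference of 1.93 ± 0.35 (adjusted p = 0.00581). DMRTB1, a DM-domain transcription factor that controls the switch from mitosis to meiosis in mouse spermatogonia, had 3.23, 2.92 and 2.68 CPM in DSY127, against 0.513, 0.147 and 0.579 CPM in No.40 (log2 difference 2.80, adjusted p = 0.014). MEIOC, which sustains meiotic prophase in mice, differed by 1.27 (adjusted p = 0.0183), and TDRD6, a Tudor protein of the chromatoid body, by 0.62 (adjusted p = 0.024). EZHIP, an inhibitor of Polycomb repressive complex 2 that is normally made in the gonads, had 65.7, 76.1 and 59.7 CPM in DSY127, against 16.1, 0.688 and 1.07 CPM in No.40. Its log2 difference was 3.49 ± 0.93 with an adjusted p of 0.0485, and 6.19 with an adjusted p of 0.000111 without No.40 replicate 1.

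Of the 11 genes, RBM46, RBM44, BRDT, SYCP1 and PIWIL1 remained called whichever of the 6 libraries was left out. DMRTB1 lost its call without No.40 replicate 2 (adjusted p = 0.0698). EZHIP and TDRD6 were called in 1 of the 6 fits, MEIOC in 2, SMC1B in 3 and SYCE1 in 4. The highest adjusted p with 1 library left out was 0.133 for EZHIP, 0.119 for SMC1B, 0.0898 for SYCE1 and 0.158 for TDRD6, each without No.40 replicate 2, and 0.0829 for MEIOC without No.40 replicate 3. Some abundant members of the list were similar in both groups. TDRKH, a Tudor protein of mitochondria in the piRNA pathway, had 101, 119 and 108 CPM in DSY127, against 90.4, 99.8 and 107 CPM in No.40. SPO11, the enzyme that makes meiotic double-strand breaks, had 53.6, 62 and 57.1 CPM in DSY127, against 57.6, 70.5 and 54 CPM in No.40. DDX4, the germ cell RNA helicase VASA, had 7.03, 6.14 and 5.16 CPM in DSY127 and 1.39, 0.786 and 1.99 CPM in No.40, without overlap, but did not pass the test (adjusted p = 0.0526). The piRNA and meiotic genes thus split into members that differed and members that did not.

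**Figure D1:**
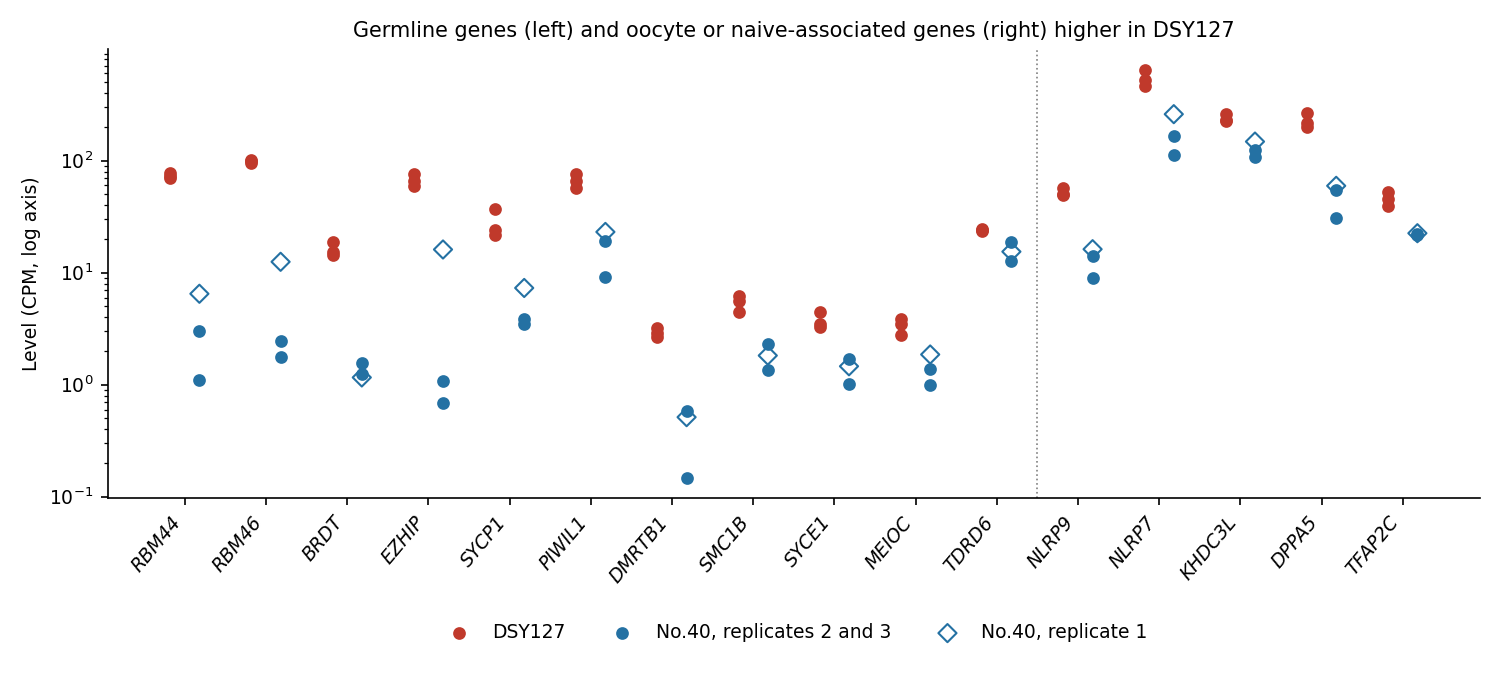
Levels in CPM on a log axis for the 11 called germline genes and for 5 called oocyte or naive-associated genes, with 1 point per library, DSY127 on the left of each pair and No.40 on the right. All DSY127 points lie above all No.40 points, and No.40 replicate 1 (open diamonds) is nearest to DSY127 for EZHIP (16.1 CPM) and RBM46 (12.5 CPM) but not for BRDT (1.16 CPM).

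A few oocyte and naive genes were higher in DSY127 as well. Of 14 tested maternal oocyte genes, 3 were called higher (21.4%, against 2.65% of all tested genes), none lower, and 11 did not pass. Of 18 tested naive genes, 4 were called higher (22.2%), none lower, and 14 did not pass, with a median log2 difference of 0.82. NLRP7 and KHDC3L are on both lists, so the counts of called genes overlap. NLRP7, mutated in familial hydatidiform mole in humans, had 522, 649 and 466 CPM in DSY127, against 260, 113 and 166 CPM in No.40 (log2 difference 1.60 ± 0.25, adjusted p = 0.00207). NLRP9, another oocyte NLR gene, had 57, 49.7 and 50.2 CPM in DSY127, against 16.2, 8.89 and 14.1 CPM in No.40 (2 ± 0.24, adjusted p = 0.000167). KHDC3L, a member of the subcortical maternal complex of the oocyte, had 229, 261 and 224 CPM in DSY127, against 148, 107 and 124 CPM in No.40 (0.91 ± 0.15, adjusted p = 0.00275). No library of one group overlapped the other for these genes. NLR genes are near copies of one another, and how reads shared between copies were counted is not given in the sources used here.

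DPPA5, an RNA-binding protein of early embryos and pluripotent cells, had 219, 268 and 200 CPM in DSY127, against 59.6, 30.7 and 55 CPM in No.40, a log2 difference of 2.24 ± 0.27 (adjusted p = 0.000176). In the reference gene table of the assembly calJac240, DPPA5, KHDC3L, DDX43 and CGAS are neighbours in that order among tested genes with a symbol, and all 4 were called higher in DSY127. DDX43, an RNA helicase of the testis, differed by 0.75 (adjusted p = 0.0125) and CGAS, the cytosolic DNA sensor, by 0.81 (adjusted p = 0.00772). Both were named after their values were seen. TFAP2C, a transcription factor of naive cells, trophoblast and primordial germ cells, had 45, 52.2 and 39.1 CPM in DSY127, against 22.5, 22.3 and 21.9 CPM in No.40 (1.03 ± 0.25, adjusted p = 0.0247). Its call was lost when DSY127 replicate 2 was left out (adjusted p = 0.114), as it was without 4 other libraries in turn, whereas DPPA5, NLRP7, NLRP9 and KHDC3L remained called whichever library was left out.

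Other naive factors did not pass the test. KLF17, a naive-state factor of primates, had 8.95, 9.42 and 8.87 CPM in DSY127 and 9.69, 0.442 and 2.11 CPM in No.40, so that replicate 1 of No.40 lay at the level of DSY127. KLF5 had 44.1, 32.6 and 65.9 CPM in DSY127 and 42, 11.1 and 12 CPM in No.40, the same arrangement. Without No.40 replicate 1 both were called higher in DSY127, KLF17 at a log2 difference of 2.73 (adjusted p = 0.00228) and KLF5 at 2.01 (adjusted p = 0.000331). KLF4 had 141, 163 and 134 CPM in DSY127, against 108, 107 and 136 CPM in No.40 (adjusted p = 0.393). ESRRB stayed at or below 1.15 CPM in all 6 libraries. For scale, naive cells had on average 64.9 CPM (DSY-c2) and 36.7 CPM (N40) of ESRRB, and 85.9 and 115 CPM of KLF17.

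A wider set was defined from the other ESC groups, which share no library with this comparison. Genes called higher in naive than in primed cells in both DSY-c2 and N40 numbered 4113 (22.9% of tested genes), and genes called lower in both numbered 3942 (22%). In DSY-c2 alone 29.6% of tested genes were called higher and 29.3% lower in naive cells, and in N40 alone 32.3% and 28.7%. Of the 476 genes higher in DSY127, 165 (34.7%) were in the naive-high set and 80 (16.8%) in the naive-low set. Of the 326 genes lower in DSY127, 50 (15.3%) were in the naive-high set and 110 (33.7%) in the naive-low set. The genes that differed between the primed lines thus fell more often on the naive side when higher in DSY127 and on the primed side when lower, beside shares of 22.9% and 22% over all tested genes. These shares were not tested. The named germline genes were not mainly of that kind. RBM44, RBM46, PIWIL1, SYCP1, EZHIP, DMRTB1, SMC1B and MEIOC were in neither set, whereas BRDT and SYCE1 were in the naive-high set. Of the oocyte and naive lists, NLRP7, NLRP9, DPPA5 and KHDC3L were in the naive-high set.

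The core pluripotency genes were abundant in every library. Primed and naive cells share them, so their levels do not check the primed label. The naive groups DSY-c2_N_TgON and N40_N_TgOFF averaged 1391 and 1477 CPM of POU5F1. POU5F1 had 1016, 1134 and 945 CPM in DSY127, against 1041, 1187 and 1457 CPM in No.40. NANOG had 307, 346 and 298 CPM in DSY127, against 414, 413 and 497 CPM in No.40 (log2 difference -0.48, adjusted p = 0.063). SOX2 lay between 67 and 111 CPM in all 6 libraries. Of 10 tested shared pluripotency genes, LIN28B was the 1 called (10% higher, against 2.65% of all tested genes). LIN28B, an RNA-binding protein that blocks let-7 maturation, had 1060, 1119 and 1033 CPM in DSY127, against 625, 509 and 624 CPM in No.40 (0.87 ± 0.10, adjusted p = 8.43e-05), and its paralogue LIN28A had 345, 374 and 348 CPM in DSY127, against 340, 362 and 413 CPM in No.40.

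Of 12 tested primed genes, 1 was higher and 1 lower in DSY127 (8.33% each, against 2.65% and 1.82% of all tested genes). PTPRZ1, a receptor tyrosine phosphatase, had 13.1, 17.3 and 15.3 CPM in DSY127, against 3.57, 5.45 and 6.29 CPM in No.40 (1.58 ± 0.36, adjusted p = 0.0197). DNMT3A, a de novo DNA methyltransferase, had 171, 182 and 182 CPM in DSY127, against 254, 360 and 326 CPM in No.40 (-0.81 ± 0.21, adjusted p = 0.037). DNMT3B, the more abundant enzyme, had 3093, 3417 and 2579 CPM in DSY127, against 2016, 2660 and 3007 CPM in No.40 and did not pass the test (adjusted p = 0.508). With 1 library left out PTPRZ1 was called in 2 of 6 fits (adjusted p up to 0.0809) and DNMT3A in 1 (up to 0.143). TET2, which oxidises methylcytosine, had 17.2, 19.3 and 21.3 CPM in DSY127, against 15.8, 11.4 and 11.9 CPM in No.40 (0.56, adjusted p = 0.0131, called in 3 of the 6 fits). It was, with DNMT3A, 1 of the 2 called among 11 tested DNA methylation genes (9.09% higher and 9.09% lower).

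**Figure D2:**
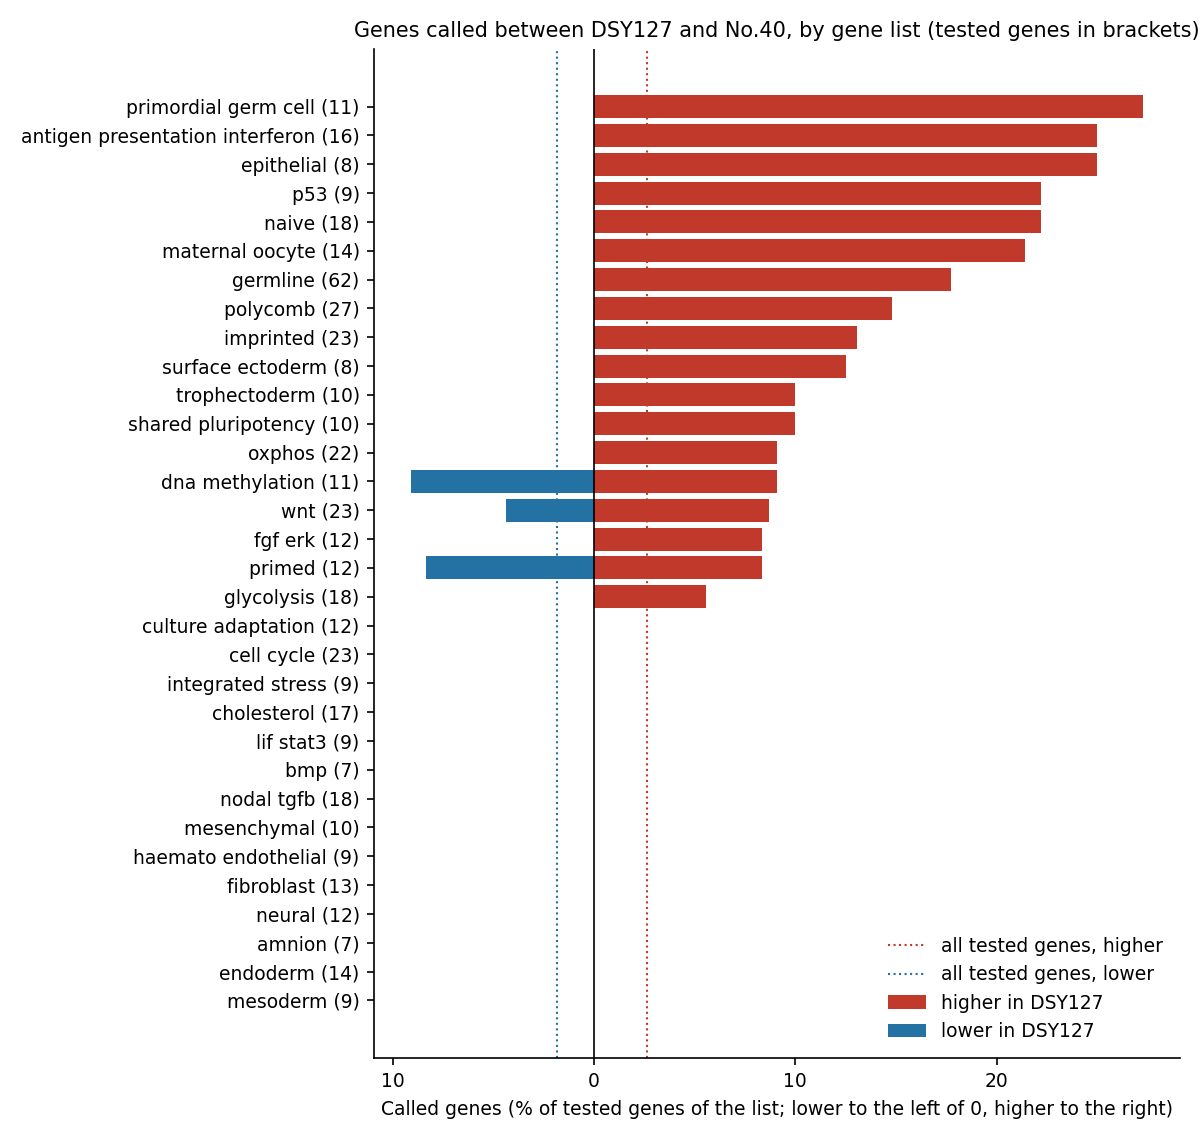
Share of the tested genes of each list called higher (right of 0) or lower (left of 0) in DSY127, in percent, with the number tested in brackets and the share over all tested genes as dotted lines (2.65% higher, 1.82% lower). The bars of the germline (17.7% higher), maternal oocyte and naive lists run to the right, and the mesoderm, endoderm, amnion, neural, fibroblast and mesenchymal lists have no bar.

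Of 16 tested genes for antigen presentation and interferon response, 4 were called higher in DSY127 (25%, against 2.65% of all tested genes), none lower, and 12 did not pass the test. The 4 were TAP1, TAP2, IFIT1 and IFIT3. TAP1 and TAP2 form the transporter that loads peptides onto MHC class I. TAP1 had 37.2, 42.8 and 35 CPM in DSY127, against 8.68, 7.05 and 8.76 CPM in No.40 (2.23 ± 0.43, adjusted p = 0.00763). TAP2 had 9.52, 11 and 10.8 CPM in DSY127, against 3.91, 3.12 and 3.13 CPM in No.40 (1.63 ± 0.22, adjusted p = 0.000515). The groups were far apart for both genes. B2M, the light chain of MHC class I, had 125, 117 and 147 CPM in DSY127, against 92.5, 84.9 and 103 CPM in No.40, and did not pass the test (adjusted p = 0.103). The interferon-induced gene IFIT1 had 10, 9.62 and 17.4 CPM in DSY127, against 5.74, 2.85 and 2.39 CPM in No.40 (1.76, adjusted p = 0.00859), and IFIT3 was called at about 1 CPM. TAP2 remained called whichever library was left out. TAP1 and IFIT1 reached adjusted p-values of 0.0516 and 0.0517 without No.40 replicate 2, and IFIT3 reached 0.107 without DSY127 replicate 3.

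Of 27 tested Polycomb genes, 4 were higher (14.8%, against 2.65% of all tested genes) and none lower in DSY127, EZHIP above among them. EZH2, the catalytic subunit of the complex that EZHIP inhibits, had 160, 164 and 158 CPM in DSY127, against 138, 120 and 132 CPM in No.40, a small difference of 0.30 (adjusted p = 0.0319). PCGF1, a subunit of a variant complex, differed by 0.59 (adjusted p = 0.0462). EZH2 and PCGF1 were each called in 1 of the 6 fits that leave out 1 library, with adjusted p-values of up to 0.194 and 0.165. Of 23 tested imprinted genes, 3 were higher (13%) and none lower. ZDBF2 had 107, 125 and 108 CPM in DSY127, against 59, 40.8 and 69.5 CPM in No.40 (1, adjusted p = 0.0136, called in 4 of the 6 fits). FAM50B differed by 1.07 (adjusted p = 0.00107, called whichever library was left out) and INPP5F by 0.49 (adjusted p = 0.0126, called in 2 of the 6 fits).

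Of 23 tested WNT genes, WNT5B and NOTUM were higher in DSY127 (8.7%, against 2.65% of all tested genes) and FZD5 was lower (4.35%, against 1.82%). FZD5, a WNT receptor, had 91.7, 65.8 and 141 CPM in DSY127, against 388, 189 and 309 CPM in No.40 (-1.57 ± 0.40, adjusted p = 0.0381). The ligand WNT5B had 15.2, 7.65 and 14.3 CPM in DSY127, against 4.94, 3.19 and 1.6 CPM in No.40 (1.93 ± 0.51, adjusted p = 0.0424). NOTUM, an enzyme that inactivates WNT proteins, differed by 1 (adjusted p = 0.0423). FZD5 and WNT5B were called in 2 of the 6 fits that leave out 1 library and NOTUM in 0, with adjusted p-values of up to 0.146 for FZD5 (without DSY127 replicate 2), 0.149 for WNT5B (without No.40 replicate 2) and 0.165 for NOTUM (without DSY127 replicate 2). FGFR3 was the 1 called of 12 FGF-ERK genes (8.33%), at 0.69 (adjusted p = 0.0141, called in 3 of the 6 fits). None of 18 nodal and TGF-beta, 7 BMP or 9 LIF-STAT3 genes was called.

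None of 23 cell cycle, 17 cholesterol, 9 integrated stress or 12 culture adaptation genes was called, beside 4.47% of all tested genes, a share at which lists of this size hold few calls. Their median log2 differences lay between -0.01 and 0.20. Of 22 tested respiratory chain genes SDHB (0.39, adjusted p = 0.0485) and NDUFA9 (0.27, adjusted p = 0.0245) were higher (9.09%, against 2.65% of all tested genes). Of 18 glycolytic genes (5.56% higher) PDK1, a kinase that holds pyruvate dehydrogenase off, was higher (0.50, adjusted p = 0.0432). SDHB and NDUFA9 were called in 0 of the 6 fits that leave out 1 library and PDK1 in 1. Of 9 tested p53 targets, TNFRSF10B and SESN1 were higher (22.2%, against 2.65% of all tested genes), and the list's median log2 difference was 0.44, with 7 of 9 values above 0. TNFRSF10B, a receptor for the death ligand TRAIL, had 41.1, 45.1 and 41.3 CPM in DSY127, against 20.6, 7.96 and 7.5 CPM in No.40 (1.82 ± 0.32, adjusted p = 0.00392). SESN1 differed by 0.79 (adjusted p = 0.0178, called in 2 of the 6 fits that leave out 1 library).

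Outside the lists, the largest rise among named genes at 10 CPM or more was in PIK3C2G, a class II phosphoinositide 3-kinase. It had 31.6, 32.5 and 29.7 CPM in DSY127, against 3.23, 0.147 and 0.239 CPM in No.40 (4.68 ± 0.79, adjusted p = 0.00381). HDGFL1 had 17.7, 17.5 and 14.4 CPM in DSY127, against 3.19, 0.246 and 0.409 CPM in No.40 (3.67, adjusted p = 0.00795). As for EZHIP and RBM46, replicate 1 was the highest No.40 library for both. MSR1, a macrophage scavenger receptor, had 47.3, 51.7 and 45.1 CPM in DSY127, against 11.2, 2.38 and 4.75 CPM in No.40 (2.97, adjusted p = 0.0017). TRMT12, an enzyme of wybutosine synthesis in tRNA, had 9.81, 13 and 9.79 CPM in DSY127, against 2.19, 0.884 and 1.14 CPM in No.40 (2.94 ± 0.27, adjusted p = 1.27e-05). The other named rises were SALL3 (2.51), DLL1, a Notch ligand (2.43), GATM, an enzyme of creatine synthesis (2.24), and LRP1B, a receptor of the LDL receptor family (2.14). GATM alone of these lost its call with 1 library left out, in 3 of 6 fits, at an adjusted p of up to 0.219 without DSY127 replicate 3, which held 19 CPM against 5.83 and 5.36 CPM in the other DSY127 libraries.

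The genes that were lower in DSY127 formed no group that a list captured. C18orf63, a gene with no established role, had 0.365, 0.401 and 0.563 CPM in DSY127, against 13, 16.2 and 19 CPM in No.40, the largest fall among named genes (-5.17 ± 0.58, adjusted p = 8.43e-05). It averaged 55.8 ± 10.1 CPM in the epiblast (SD, n = 3), on the separate scale of the embryo libraries. TCAF1, a partner of the cold channel TRPM8, had 6.52, 4.46 and 6.07 CPM in DSY127, against 27.4, 39.2 and 42.6 CPM in No.40 (-2.68 ± 0.46, adjusted p = 0.00332). No.40 replicate 1 belonged with its group for both genes. SGK1, a kinase induced by serum and glucocorticoids, had 88.8, 91.7 and 94.6 CPM in DSY127, against 253, 310 and 300 CPM in No.40 (-1.65 ± 0.44, adjusted p = 0.0468, called in 1 of the 6 fits that leave out 1 library). TMEM63A, a mechanosensitive ion channel, had 38, 37 and 40.2 CPM in DSY127, against 122, 101 and 107 CPM in No.40 (-1.52 ± 0.21, adjusted p = 0.000711).

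Further named falls were those of SRPX2, a secreted protein (-2.67), PPP2R2B, a subunit of protein phosphatase 2A (-2.21), TNMD, tenomodulin (-2.16), SLC18A2, the vesicular monoamine transporter (-1.91), RGS6 (-1.61), ARMC3 (-1.58), LAMA2, a laminin chain (-1.54), PGM5 (-1.47) and ELAVL2, a neuronal RNA-binding protein (-1.43). SLC18A2, TNMD, RGS6 and LAMA2 remained called whichever library was left out, as did C18orf63, TCAF1 and TMEM63A. Of the 6 fits that leave out 1 library, SRPX2 and ARMC3 were called in 1, PGM5 and ELAVL2 in 2 and PPP2R2B in 3. Wide contrasts were also seen in genes without a symbol, of which 3 are given here without regard to rank. ENSCJAG00000010567 had 0.183, 0.401 and 0.0704 CPM in DSY127, against 119, 97.2 and 94.3 CPM in No.40, and ENSCJAG00000005174 had 0.0406, 0.109 and 0 CPM in DSY127, against 5.7, 5.35 and 7.6 CPM in No.40. In the other direction ENSCJAG00000003751 had 40.3, 39.8 and 40.7 CPM in DSY127, against 1.22, 2.5 and 0.698 CPM in No.40. These 3 IDs were named after their values were seen, and all 3 remained called whichever library was left out.

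Some called genes lay side by side on a chromosome. Genes with a symbol were placed in the order of the calJac240 gene table, and medians of the log2 difference were taken over windows of 25 neighbouring tested genes with a mean of at least 10 CPM. Of 6845 windows over 7398 genes, those with a median of 0.4 or more in either direction lay on 2 chromosomes, 1 for each direction. A region ran from the first to the last such window of its chromosome, trimmed to the outermost genes called in its direction. Windows between these did not have to pass. The counts of calls inside and outside a region therefore depend partly on how its limits were set. The medians of whole chromosomes with at least 100 tested genes lay between -0.06 and 0.16. The windows and their limits were chosen after the data were seen, so the regions are a description with no test.

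The region with lower levels in DSY127 ran from LTBP1 to ACP1 and held 118 tested genes, of which 37 were called lower and none higher, against 1 lower and 11 higher of 263 tested genes on the rest of that chromosome. Over the 80 genes at 10 CPM or more the median log2 difference was -0.45, and 72 of the 80 lay below 0. DNMT3A lies in it. LTBP1, which binds latent TGF-beta, had 207, 240 and 234 CPM in DSY127, against 385, 454 and 640 CPM in No.40 (-1.12, adjusted p = 0.000992). RPS7, a ribosomal protein for which processed copies can share reads, had 514, 511 and 556 CPM in DSY127, against 669, 944 and 1020 CPM in No.40 (-0.74, adjusted p = 0.00301). ODC1, the first enzyme of polyamine synthesis, had 489, 498 and 534 CPM in DSY127, against 572, 755 and 871 CPM in No.40 (-0.53, adjusted p = 0.0116). For each of LTBP1, RPS7 and ODC1, No.40 replicate 1 was the No.40 library nearest to DSY127. Over the 80 genes, the median deviation from the mean of the 6 libraries was -0.25, -0.24 and -0.18 in DSY127 replicates 1 to 3, against -0.03, 0.31 and 0.37 in No.40 replicates 1 to 3.

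The region with higher levels in DSY127 ran from LOXL2 to LONRF1 and held 48 tested genes, of which 16 were called higher and none lower, against 15 higher and 4 lower of 266 on the rest of the chromosome. Over the 27 genes at 10 CPM or more the median was 0.77, with 25 above 0. MSR1 and TNFRSF10B lie in it, as do MTUS1, a microtubule-associated protein (1.59, adjusted p = 4.55e-05), SLC7A2, a carrier of cationic amino acids (1.93, adjusted p = 0.000829), and LOXL2, a lysyl oxidase (0.99, adjusted p = 0.00717). The deviations over the 27 genes were 0.34, 0.37 and 0.42 in DSY127 replicates 1 to 3, against -0.22, -0.45 and -0.57 in No.40 replicates 1 to 3. Both regions had the same direction in the second pair, with medians over all tested genes of the region of -0.43 and 1.06 for DSY-c2_P_Tg minus N40_P_Tg. No measurement of DNA copy number was analysed here, and its part in these differences was not tested.

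**Figure D3:**
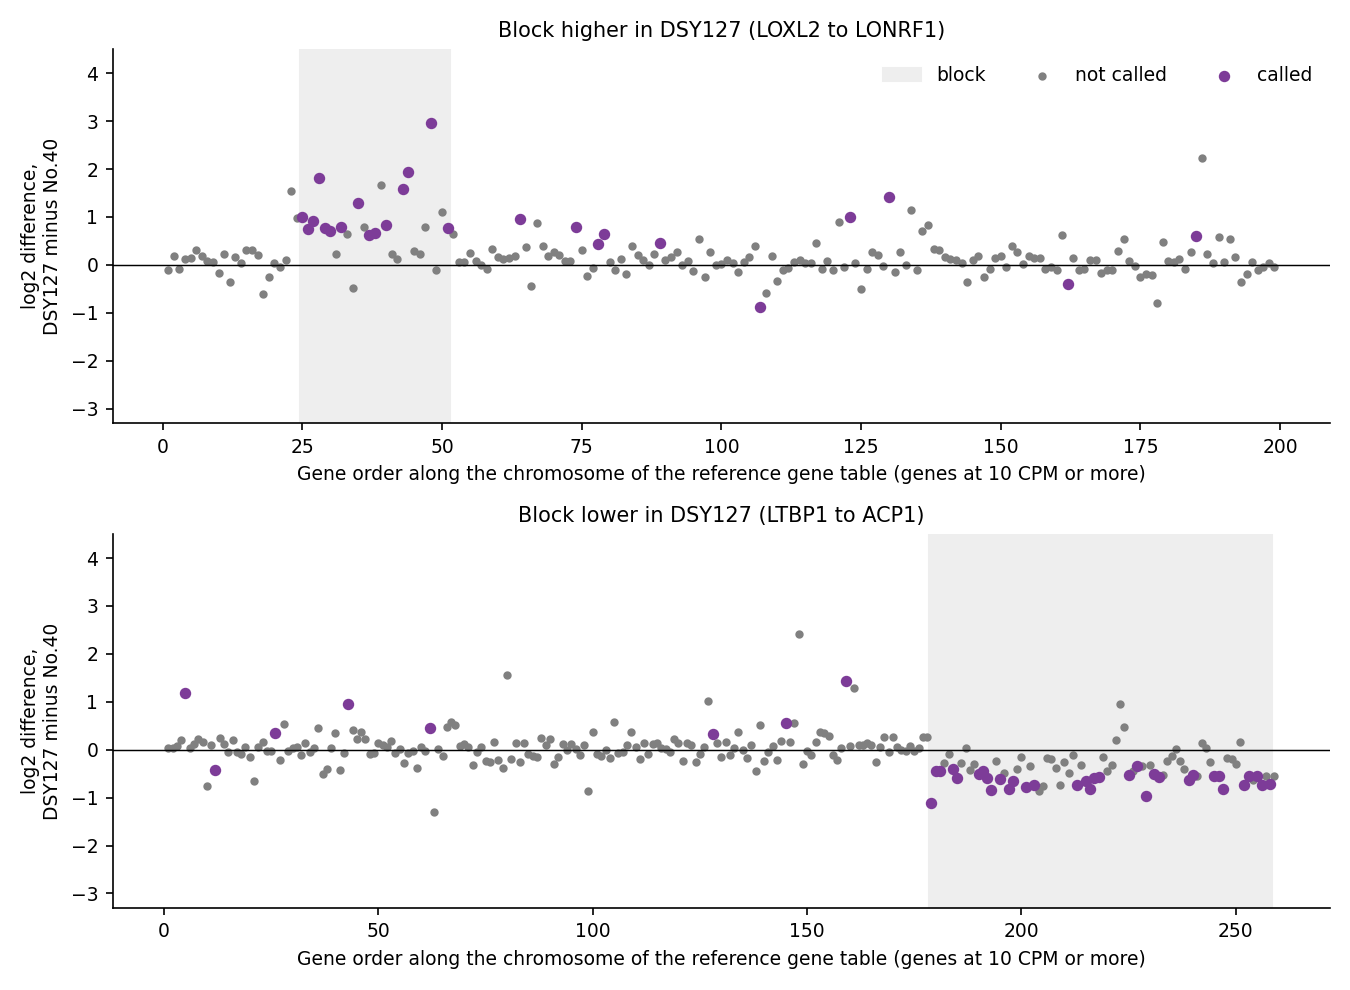
Log2 difference DSY127 minus No.40 of each gene at 10 CPM or more, in gene order along the chromosomes that hold the 2 regions (grey shading), with called genes in purple. The upper region, LOXL2 to LONRF1, has a median of 0.77, and the lower one, LTBP1 to ACP1, a median of -0.45, while points outside the shading scatter about 0.

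Differentiation genes had wide ranges within each line, and the ranges of the lines overlapped for most of those described here. None of 9 mesoderm, 14 endoderm, 7 amnion, 12 neural, 13 fibroblast, 9 blood or endothelial or 10 mesenchymal genes tested was called in either direction, beside 4.47% of all tested genes. CER1, a secreted NODAL and WNT antagonist of anterior endoderm, had 290, 16.1 and 44 CPM in DSY127 and 1113, 45.2 and 10.8 CPM in No.40. GATA6, the transcription factor of primitive endoderm, had 32.5, 7.31 and 46.6 CPM in DSY127 and 112, 9.92 and 1.23 CPM in No.40. HNF4A, a nuclear receptor of visceral endoderm, had 10.3, 8.62 and 47.4 CPM in DSY127 and 37.3, 3.73 and 0.903 CPM in No.40. In No.40 replicate 1 was the highest and replicate 3 the lowest for all 3, and in DSY127 replicate 2 was the lowest.

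Mesenchymal and streak genes followed a similar division. FN1, fibronectin, had 3997, 2211 and 6929 CPM in DSY127 and 10768, 3962 and 577 CPM in No.40. VIM, the intermediate filament of mesenchymal cells, had 952, 341 and 841 CPM in DSY127 and 1098, 1028 and 129 CPM in No.40. EOMES, a T-box factor of the primitive streak and endoderm, had 24, 5.89 and 28.5 CPM in DSY127 and 62.9, 4.3 and 1.12 CPM in No.40. The ranges of the lines overlapped for each of these genes. TBXT, brachyury, was an exception, with 61.8, 45.9 and 53.1 CPM in DSY127, against 44.9, 3.56 and 7.12 CPM in No.40, without overlap but short of the threshold (1.53 ± 0.75, adjusted p = 0.299). KDR, also of the mesoderm list, went the other way without overlap (-1.09 ± 0.60, adjusted p = 0.36). It had 57, 56.4 and 71.2 CPM in DSY127, against 141, 106 and 147 CPM in No.40. CDX1, a caudal homeobox gene of the mesoderm list, had 25.2, 20.2 and 27 CPM in DSY127, against 13.7, 2.41 and 3.27 CPM in No.40. It too was without overlap but short of the threshold (1.89 ± 0.51, adjusted p = 0.052). Without No.40 replicate 1, TBXT was called at 3.28 (adjusted p = 0.00458) and CDX1 at 3.04 (adjusted p = 0.000145). The endoderm factor GATA4 also passed the test without that library, at 1.31 (adjusted p = 0.0239). A lack of calls in these lists therefore holds for the 6 libraries together and not for every subset.

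Summed over the endoderm list, levels were 2037, 1509 and 3634 CPM in DSY127 and 4005, 1383 and 1244 CPM in No.40, with COL4A1 making up 61% of the sum. The mesenchymal list gave 5817, 3154 and 8918 CPM in DSY127 and 12817, 6035 and 1140 CPM in No.40, with FN1 making up 75.1%. The mesoderm list gave 191, 137 and 205 CPM in DSY127 and 295, 129 and 167 CPM in No.40, with KDR making up 51.5%. The shared pluripotency list spanned only 3358 to 3776 CPM in DSY127 and 2969 to 3524 CPM in No.40. In bulk RNA a larger share of differentiating cells and more RNA of these genes per cell cannot be told apart. With 3 libraries a side an exact permutation test cannot go below 0.1, and none was run on these sums.

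The same division appeared over all genes. Of 9779 genes with a mean of at least 10 CPM in DSY127, 67 (0.685%) had a range of at least 4-fold between its 3 libraries, and 60 of the 67 were highest in replicate 3. Of 9661 such genes in No.40, 194 (2.01%) had that range, with 129 highest in replicate 1, 61 in replicate 2 and 172 lowest in replicate 3. The differentiation lists gave 11 of their 47 genes at that level in DSY127, and 23 of their 44 in No.40. The sets of the lines shared 40 genes, 59.7% of the DSY127 set and 20.6% of the No.40 set.

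**Figure D4:**
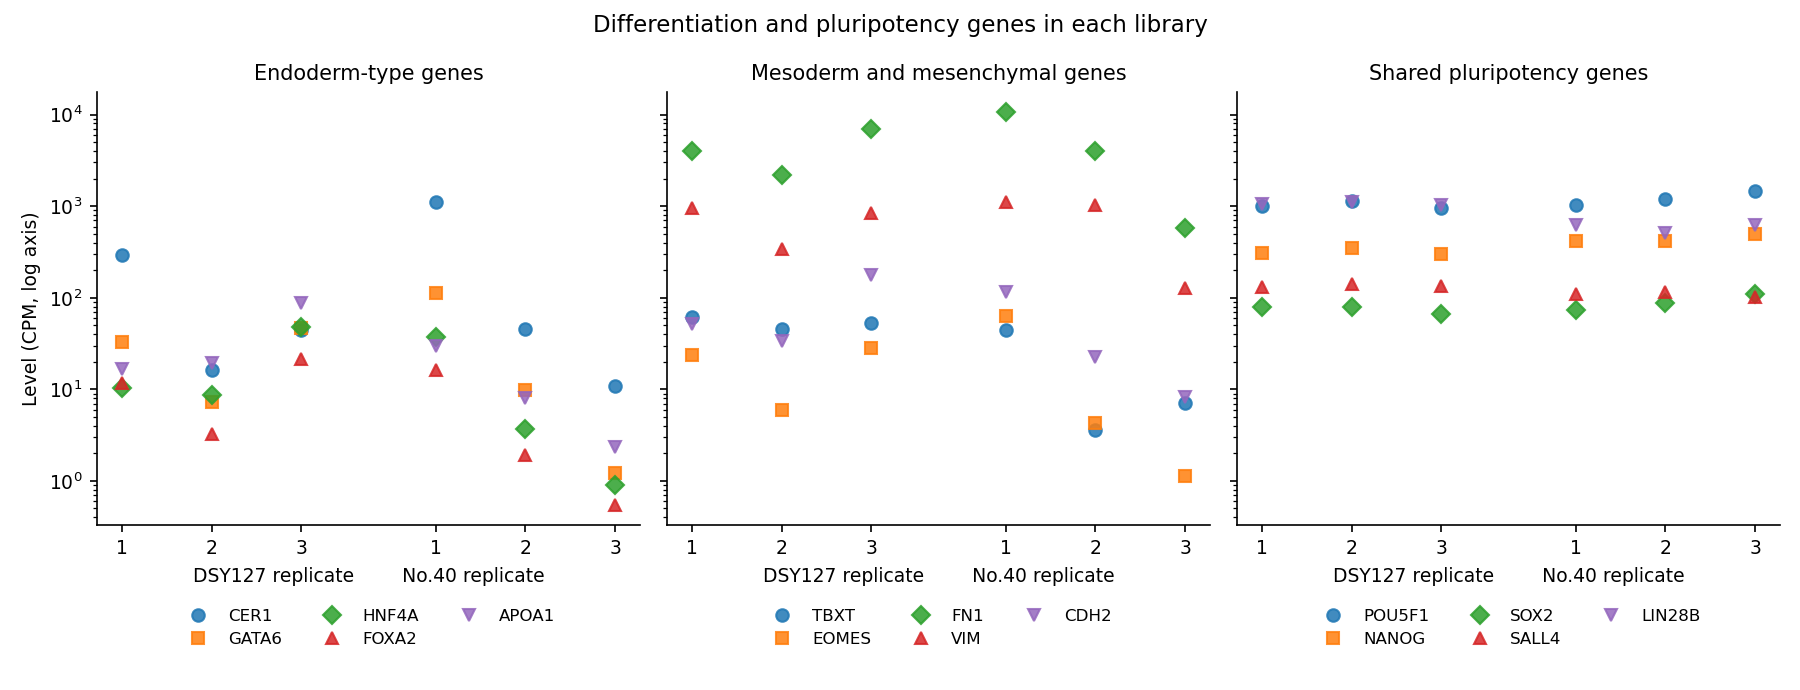
Levels in CPM on a log axis for endoderm-type genes, mesoderm and mesenchymal genes, and shared pluripotency genes, with the 3 DSY127 libraries on the left of each panel and the 3 No.40 libraries on the right. CER1 spans 16.1 to 290 CPM within DSY127 and 10.8 to 1113 CPM within No.40, while POU5F1 stays between 945 and 1457 CPM in all 6 libraries.

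Markers of other cell types were sparse or level. Of 8 tested surface ectoderm genes DLX3 was called higher (12.5%, against 2.65% of all tested genes). It had 4.39, 6.31 and 3.49 CPM in DSY127, against 0.665, 0.246 and 0.136 CPM in No.40 (adjusted p = 0.0072). DLX3 remained called whichever library was left out. KRT7, a keratin that held 82.3% of the summed amnion list, had 81.9, 106 and 73.2 CPM in DSY127 and 33.5, 17.5 and 7.46 CPM in No.40, without overlap but not called (adjusted p = 0.11). Of 8 epithelial genes, 25% were higher, namely EPCAM (729, 815 and 824 CPM in DSY127, against 570, 507 and 536 CPM in No.40, adjusted p = 0.0159) and ST14 (0.73, adjusted p = 0.0389). EPCAM was called in 2 and ST14 in 1 of the 6 fits that leave out 1 library. Of 11 primordial germ cell genes, EPCAM, TFAP2C and KIT were higher (27.3%, against 2.65% of all tested genes). KIT, a receptor tyrosine kinase, had 16.1, 17.9 and 18.5 CPM in DSY127, against 7.54, 6.04 and 8.62 CPM in No.40 (1.24, adjusted p = 0.0369), and its call was lost with any one library left out.

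The pair DSY-c2_P_Tg and N40_P_Tg, which shares no library with DSY127 and No.40, differed in many more genes. Both pairs were tested in the same fit with a shared estimate of each gene's spread, so their calls are not independent. A total of 6314 genes were called, 35.2% of those tested, 3562 higher (19.8%) and 2752 lower (15.3%) in DSY-c2_P_Tg. Its libraries also divide by header suffix, with DSY-c2_P_Tg in L6 and L7 and N40_P_Tg in L1 and L2, so line and suffix cannot be told apart there. Of the 476 genes higher in DSY127, 415 (87.2%) were higher in DSY-c2_P_Tg, which is 11.7% of the genes higher there, and 1 was lower. Of the 326 genes lower in DSY127, 276 (84.7%) were lower in DSY-c2_P_Tg, which is 10% of the genes lower there, and 4 were higher. Across the 802 called genes, which are not independent of each other, the log2 differences of the pairs had a Pearson's r of 0.86, and across all 17957 tested genes 0.47. The difference between the line differences of the pairs was itself called for 570 genes (3.17% of those tested), 160 positive (0.891%) and 410 negative (2.28%).

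**Figure D5:**
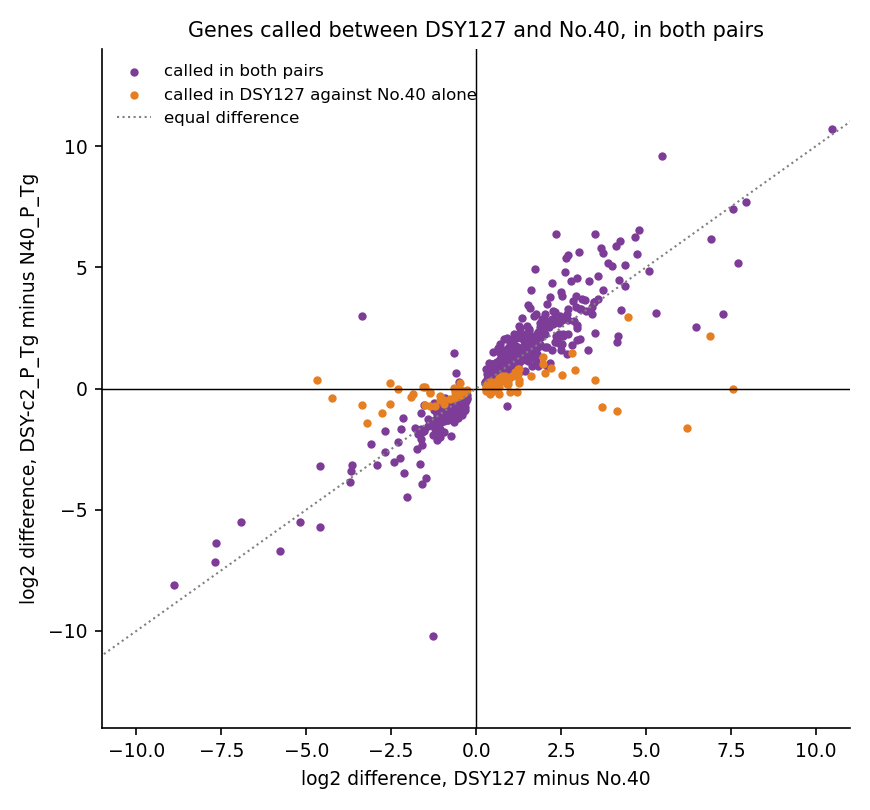
Log2 difference DSY-c2_P_Tg minus N40_P_Tg against log2 difference DSY127 minus No.40 for the 802 genes called between DSY127 and No.40, with 1 point per gene and the line of equal differences dotted. Most points lie at the lower left and upper right, where 276 and 415 genes were called in the same direction in both pairs.

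Several of the germline genes had the same order in the second pair. RBM46 averaged 141 ± 8.36 CPM in DSY-c2_P_Tg and 2.4 ± 0.615 CPM in N40_P_Tg, RBM44 30.7 ± 11.1 and 1.62 ± 0.368 CPM, BRDT 14.9 ± 3.1 and 1.17 ± 0.369 CPM, and EZHIP 66.9 ± 8.48 and 0.801 ± 0.68 CPM (SD, n = 3 each). Of the 62 tested germline genes 30 were called higher and 4 lower in DSY-c2_P_Tg, beside 19.8% and 15.3% of all genes. DPPA5 averaged 250 ± 89.4 CPM in DSY-c2_P_Tg and 33.7 ± 5.06 CPM in N40_P_Tg, and NLRP7 647 ± 194 and 143 ± 22.7 CPM. C18orf63 averaged 0.361 ± 0.0747 CPM in DSY-c2_P_Tg and 16.4 ± 1.61 CPM in N40_P_Tg. Of the 30 genes with the largest rises and falls under the naming rule, FZD5 and SLC18A2 were not called in the second pair (adjusted p = 0.92 and 0.407).

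The levels persisted in part in the naive cells. RBM46 averaged 147 ± 25.1 CPM in DSY-c2_N_TgON and 9.2 ± 4.36 CPM in N40_N_TgOFF, and EZHIP 22.7 ± 3.55 and 0.729 ± 0.47 CPM. ENSCJAG00000010567 averaged 0.617 ± 0.478 CPM in DSY-c2_N_TgON and 57.2 ± 5.97 CPM in N40_N_TgOFF, the order seen in both primed pairs. MYH9, non-muscle myosin heavy chain, had 934, 793 and 1057 CPM in DSY127, against 276, 277 and 96.1 CPM in No.40, and averaged 875 ± 169 CPM in DSY-c2_N_TgON and 116 ± 8.45 CPM in N40_N_TgOFF. It was named after its values were seen. Others converged, with DPPA5 at 622 ± 77 CPM in DSY-c2_N_TgON and 743 ± 73.9 CPM in N40_N_TgOFF, and DNMT3A at 66.5 ± 9.11 and 85 ± 33.4 CPM (SD, n = 3 each). The naive groups differ in TgON and TgOFF as well as in title, and these cannot be told apart.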

How the data were processed

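The authors deposited unnormalised counts for 30811 Ensembl IDs. Trim Galore 0.4.0, STAR 2.5.3a and featureCounts 1.5.2 are the trimming, alignment and counting tools that the submitters' processing notes name. Build and strand setting: not given in the sources used here. RNA was poly(A)+ selected for a stranded kit, per the labels' protocols. The 2 run columns of a library, were summed, since their chi-square divided by genes was 1.95 to 2, against 29.1 to 173 for separate libraries of a line, and 6 columns of no sample here were not used. Of counts from 1 to 49, 63.6% were even (50.1% at 500 or more), so mates may have been counted separately. Symbols covered 12660 IDs (41.1%) holding 76.5% to 77.8% of counts.

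All 18 ESC libraries were fitted with edgeR 4.0.16 (R 4.3.3) by robust quasi-likelihood with filterByExpr and TMM. Embryo libraries, the epiblast among them, were filtered and scaled apart from these. SEs were derived from the log2 difference and its F statistic, and log2 CPM for correlations and deviations used a prior count of 2. Members and the 34 lists were chosen with earlier results of these data known. Genes named were the 15 largest differences each way among called genes with a symbol, 10 CPM or more in whichever group was higher, without overlap, up to 6 called genes per list, and pluripotency list members. Others were chosen after their values were seen, including list members and region genes beyond these. Alternatives were DESeq2 1.42.0 (scaling, test), 2 filters, other fits, halved counts, a 2-fold threshold, a replicate block and leaving out libraries. Some genes that the rule names are not reported here. The labels do not state whether replicate numbers pair the libraries, and the main fit did not use them as pairs. Tested on simulated data for DSY127 against No.40 with 17725 genes, 58% of 100 2-fold and 71% of 100 4-fold changes were recovered, with 5 false among 134 calls. The simulation gave each gene the same spread in all groups and held no outlying library, so these rates need not hold for the data.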

Additional observations from a re-analysis of the deposited data

Results flagged for a closer look

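The line difference itself differed between the pairs (DSY127 minus No.40, less DSY-c2_P_Tg minus N40_P_Tg) in 570 genes, and 9 of the genes named in the text passed this edgeR test. LIN28B had a value of -0.60 (adjusted p = 0.0283), with 1182 ± 92 CPM in DSY-c2_P_Tg and 426 ± 37.3 CPM in N40_P_Tg. TAP2 had a value of -2.43 (adjusted p = 0.000543), with 10.8 ± 1.36 CPM in DSY-c2_P_Tg and 0.647 ± 0.0679 CPM in N40_P_Tg. KLF17 had a value of -4.46 (adjusted p = 0.0256), with 24.8 ± 3 CPM in DSY-c2_P_Tg and 0.508 ± 0.261 CPM in N40_P_Tg, while No.40 replicate 1 alone held 9.69 CPM. In the opposite direction PGM5 had a value of 2.22 (adjusted p = 0.0373) and UTF1, a chromatin factor of pluripotent cells, a value of 1.87 (adjusted p = 0.0034), with 11.9 ± 3.33 CPM in DSY-c2_P_Tg and 59.8 ± 8.76 CPM in N40_P_Tg, against 7.91 ± 1.55 CPM in DSY127 and 10.9 ± 1.87 CPM in No.40 (SD, n = 3 each).

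The other 4 were differentiation genes, CER1 (-12.77, adjusted p = 0.0353), GATA6 (-10.43, adjusted p = 0.0369), POSTN (-11.09, adjusted p = 0.0187) and FN1 (-5.06, adjusted p = 0.044). The size of the first 3 rests on N40_P_Tg, where they averaged 0.361, 0.0597 and 0.0263 CPM, so these log2 values depend on levels close to 0. FN1 averaged 4274 ± 4836 CPM in DSY-c2_P_Tg and 149 ± 11.1 CPM in N40_P_Tg, against 4379 ± 2382 CPM in DSY127 and 5102 ± 5190 CPM in No.40. Within DSY-c2_P_Tg, replicate 4 held 12458 CPM of the summed mesenchymal list and 5006 CPM of the endoderm list, against 1759 to 2557 and 1199 to 1395 CPM in the other DSY-c2_P_Tg libraries. The part of that library in the 4 values was not tested.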

How the results depend on the processing

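For DSY127 against No.40, calls (higher and lower) numbered 44 (32 and 12) at a 2-fold threshold, 430 (247 and 183) in a fit of the 6 libraries, 1544 (801 and 743) with the DESeq2 test, and 368 to 1165 (199 to 586 and 148 to 579) with 1 library left out. DESeq2 scaling, both filters, halved counts and a fit of 12 primed libraries kept them within 1.5 times of 802 (656 to 884). For DSY-c2_P_Tg against N40_P_Tg the 2-fold threshold left 458 (390 and 68), and leaving out a library gave 4821 to 6323 calls. For the difference of the line differences, counts were 352 (241 lower) without a filter, 19 (5 and 14) at 2-fold, 1419 (509 and 910) with the DESeq2 test, 244 lower in the fits of 12 primed libraries, and 205 to 907 (66 to 347 and 133 to 560) with 1 library left out. List genes called, 42 higher and 2 lower, numbered 5 and 0 at 2-fold, 26 and 4 in the fit of 6 libraries, 71 and 10 with the DESeq2 test, 1 lower without a filter, and 16 to 61 and 0 to 7 with 1 library left out. Naive-high genes among the calls, 215, numbered 7, 76 and 361 at 2-fold, in the 6-library fit and with the DESeq2 test, and 89 to 292 with 1 library left out. Naive-low genes, 190, numbered 2 and 467 at 2-fold and with the DESeq2 test, and 74 to 269 with 1 library left out.

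Without No.40 replicate 1 and DSY127 replicate 3 together, an alternative chosen after seeing the data, 588 genes were called, the difference of differences had 130 (27 and 103), and 106 naive-low and 0 lower list genes remained. The replicate block left 28 calls (15 and 13), 3 higher and 0 lower list genes, 5 naive-high and 9 naive-low genes. Deviations of same-numbered libraries correlated at 0.01, -0.12 and -0.22, and those of other-numbered libraries at -0.29 to 0.37. These values cannot tell whether the numbers pair the libraries, which the labels do not state. The cause of these changes was not tested. Of the 81 named genes called, 41 remained called whichever library was left out, and none changed direction under any alternative as a called gene. Region medians stayed between 0.65 and 0.90 and between -0.61 and -0.39.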
